A study of Mus musculus with 6 samples.

Results

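The 10 chemokine genes described here, Cxcl1, Cxcl2, Cxcl3, Cxcl5, Cxcl10, Cxcl16, Ccl2, Ccl5, Ccl7 and Ccl20, were taken by symbol from a count table of 48587 mouse genes and were chosen as chemokines that carcinoma cells can secrete. All of them were found. Total RNA was sequenced from cultures of 4T1, a carcinoma cell line of the mouse mammary gland. The METTL7A1 group was 3 libraries of 4T1 cells stably expressing a FLAG-tagged full-length Mettl7a1 cDNA from the CMV promoter of the pBICEP-CMV-2 vector. The mock group was 3 libraries of 4T1 cells that carried the empty vector. Both groups were kept in 350 μg/ml G418, the drug that selects for the vector. Whether each group was a pool of transfected cells or 1 clone is not given in the sources used here. The libraries are labelled biological triplicates with no mention of separate transfections, so that p values measure the spread between these libraries, which may be technical in part. Only RNA was measured, not secreted protein.

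Chemokines are small secreted proteins that bind receptors on leukocytes and steer them toward their source. CXC chemokines have 1 residue between the first pair of cysteines of the mature protein, and CC chemokines have these cysteines side by side. CXC chemokines with the residues glutamate, leucine and arginine (ELR) just before that pair act on CXCR2 of neutrophils, whereas those without ELR, such as CXCL10, act on other receptors of T and natural killer cells. Many chemokine genes are switched on by NF-kB downstream of TNF, IL-1, IL-17 and Toll-like receptors, and some by interferons. 4T1 tumors are known for the large numbers of neutrophils and related myeloid cells that they call up in the host.

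The coding sequence around the first cysteine pair shows which of the genes belong to which class. The following stretches of 27 bases, read 5′ to 3′ from the GENCODE M21 transcripts (build GRCm38), all lie in exon 2, and capitals mark the cysteine codons. The 4 ELR genes have the ELR codons directly before the first cysteine codon, and Cxcl10 and Ccl2 are shown for contrast.
Cxcl1, chr5:90891484-90891510, plus strand: aatgagctgcgcTGTcagTGCctgcag
Cxcl2, chr5:90904130-90904156, plus strand: agtgaactgcgcTGTcaaTGCctgaag
Cxcl3, chr5:90786356-90786382, plus strand: agtgagctgcgcTGTcagTGCctgaac
Cxcl5, chr5:90759715-90759741, plus strand: acggagctgcgtTGTgttTGCttaacc
Cxcl10, chr5:92348175-92348201, minus strand: aggacggtccgcTGCaacTGCatccat
Ccl2, chr11:82036494-82036520, plus strand: gccccactcaccTGCTGCtactcattc
Over the whole coding sequence Cxcl2 and Cxcl3 were the closest pair of ELR genes, with 89.7% identical bases. Cxcl1 was 78.8% identical with Cxcl2, 75.7% with Cxcl3 and 68.4% with Cxcl5. Of the stretches of 31 bases in the transcripts of Cxcl2, 7.59% also occurred in Cxcl3, and 4.56% of those of Cxcl3 occurred in Cxcl2. How reads mapping to several places were counted is not given in the sources used here, so the counts of Cxcl2 and Cxcl3 are uncertain to that extent. Cxcl5 shared 0.8705% and Ccl5 0.539% of such stretches with other genes, and the remaining 6 genes shared none.

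The 4 ELR genes lie within chr5:90759378-90905938, all on the plus strand, in the order Cxcl5, Cxcl3, Cxcl1 and Cxcl2, and Cxcl10 lies further along the same chromosome at 92346638 to 92348889 on the minus strand. Ccl2 (82035571 to 82037453) and Ccl7 (82045712 to 82047525) are adjacent on chromosome 11, Ccl5 (83525778 to 83530518) follows on the same chromosome, Cxcl16 (70453983 to 70459984) lies elsewhere on it, and Ccl20 (83116766 to 83119167) is on chromosome 1. All of these positions are those of the deposited table (mm10).

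Promoters of 5 of the 10 genes were matched in RefSeq (GRCm38.p6). The windows from -120 to -31 relative to the start site are printed 5′ to 3′ on the strand of the gene, since they hold most of the NF-kB-type words found in these genes, and capitals mark every match. Words searched on both strands over the 250 bases before the start were the kB word GGAATTTCC, the looser kB word GGGNNNNNCC, which overlaps the first where a G precedes or a C follows it, the interferon response word GAAANNGAAA and the AP-1 word TGANTCA.
Cxcl1, chr5:90891125-90891214: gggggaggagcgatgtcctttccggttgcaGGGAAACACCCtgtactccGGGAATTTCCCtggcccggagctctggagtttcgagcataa
Cxcl2, chr5:90903779-90903868: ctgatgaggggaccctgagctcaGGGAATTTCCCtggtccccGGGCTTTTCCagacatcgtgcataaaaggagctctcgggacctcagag
Cxcl3, chr5:90785981-90786070: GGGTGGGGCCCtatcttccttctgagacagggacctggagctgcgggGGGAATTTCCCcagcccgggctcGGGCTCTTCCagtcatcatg
Cxcl10, chr5:92348920-92349009: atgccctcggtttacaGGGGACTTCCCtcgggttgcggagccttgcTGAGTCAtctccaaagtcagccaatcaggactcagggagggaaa
Ccl20, chr1:83116646-83116735: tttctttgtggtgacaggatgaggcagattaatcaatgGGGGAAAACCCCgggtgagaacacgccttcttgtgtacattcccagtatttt
The word GGAATTTCC was in 0.286% of 32851 promoters and in 4 of these 5. It lay at -70 to -62 in Cxcl1, at -96 to -88 in Cxcl2 and at -72 to -64 in Cxcl3, and on the other strand of Cxcl10 at -158 to -150, outside the printed window. Ccl20 held only the looser word, which was in 45.8% of all promoters. Cxcl10 was the only one of the 5 with the interferon response word, at -213 to -204 and in 2.98% of all promoters, and with the AP-1 word, at -74 to -68 and in 6.75% of all promoters. Such matches describe the letters and do not show binding.

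The transfected gene was examined first. Counts of Mettl7a1 were 6355, 11358 and 10398 in the METTL7A1 libraries, given here and below in the order of replicates 1 to 3, and 30, 30 and 29 in the mock libraries, so that each library followed its label. Total counts per library lay between 18386780 and 28459338, and 3 counts corresponded to 0.105 to 0.163 cpm of these unscaled totals. Levels in cpm are counts scaled to a common library size with TMM factors, which align libraries on the bulk of their genes. The correlation of log2 cpm was between 0.989 and 0.996 within groups and between 0.961 and 0.967 across groups. The 13166 genes with at least 1 cpm in at least 3 libraries were tested, and a gene was called at an adjusted p under 0.05 (edgeR quasi-likelihood test, Benjamini-Hochberg over all genes tested). Called genes that were higher in METTL7A1 made up 21.1% and lower ones 20.9% of those tested. The stricter study thresholds were an adjusted p under 0.01 and a log2 fold change over 1.5 in size.

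Most of the chemokine genes differed between the groups, and not in 1 direction. Of the 10 genes 9 were tested and 8 were called, where 42.0% of all tested genes were called. Cxcl1, Cxcl5, Cxcl10, Ccl2, Ccl5 and Ccl20 were higher in METTL7A1 cells, Cxcl3 and Cxcl16 were lower, Cxcl2 was not called, and Ccl7 was too low to be tested. Ccl20, Ccl2 and Cxcl3 also passed the study thresholds, as did 2.48% of all tested genes. The METTL7A1 libraries did not overlap the mock libraries in 8 of the 9 tested genes, as in 51.6% of all genes tested. The median log2 fold change of the 9 tested genes was 0.60, against -0.03 over all genes tested. These counts are a description, since the genes were chosen with earlier results of these data known. Ccl2 also reached the test only through the libraries in which it was high. In bulk RNA, fewer expressing cells and less RNA per cell cannot be told apart.

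**Figure D1:**
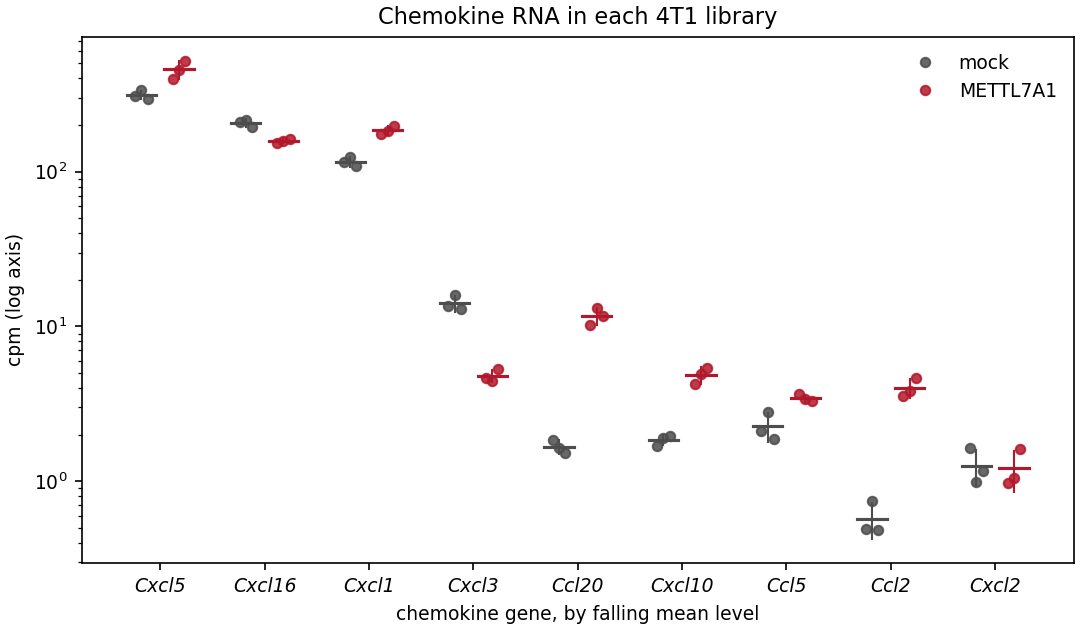
Level of each tested chemokine gene in cpm on a log axis, with points for the 3 mock and 3 METTL7A1 libraries, horizontal bars for group means and vertical bars for the SD. Cxcl5, Cxcl16 and Cxcl1 lie above 100 cpm in all libraries, Cxcl3 falls below its mock level, Ccl20 and Ccl2 rise clear of theirs, and the groups overlap only for Cxcl2.

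The ELR chemokines, ligands of CXCR2, comprised both the most abundant genes of the set and the one with the strongest fall. Cxcl5, which attracts neutrophils and is made by epithelial cells, had 399, 453 and 521 cpm in the METTL7A1 libraries and 309, 336 and 297 cpm in the mock libraries. Every METTL7A1 library lay above every mock library, and METTL7A1 replicate 1 was the lowest of its group. The means were 458 ± 61.2 and 314 ± 20.3 cpm (SD, n = 3 each). The difference was 0.54 ± 0.10 on the log2 scale (SE, edgeR adjusted p = 0.00145).

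Cxcl1, a major neutrophil attractant of the mouse, had 174, 184 and 197 cpm in the METTL7A1 libraries and 115, 124 and 108 cpm in the mock libraries. The groups were well apart relative to their spread. The means were 185 ± 11.5 and 116 ± 8.12 cpm (SD, n = 3 each). The log2 fold change was 0.67 ± 0.08 (SE, edgeR adjusted p = 6.31e-05).

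Cxcl3, another CXCR2 ligand, moved the opposite way. It had 86, 132 and 131 counts in the METTL7A1 libraries and 247, 387 and 321 counts in the mock libraries, or 4.62, 4.46 and 5.30 against 13.5, 15.9 and 12.9 cpm. Each METTL7A1 library was well below each mock library. The means were 4.80 ± 0.446 and 14.1 ± 1.62 cpm (SD, n = 3 each), and the level in mock was 2.94-fold that in METTL7A1 cells, -1.56 ± 0.13 on the log2 scale (SE, edgeR adjusted p = 7.41e-06). Of the 13166 tested genes 114 fell further. Without mock replicate 2 the log2 fold change was -1.46, no longer past the fold limit of the study thresholds, although Cxcl3 remained called in all 15 alternatives (adjusted p between 2.41e-23 and 0.000146).

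Cxcl2, the closest relative of Cxcl3 in sequence and an early neutrophil attractant, was near the lower limit of the test. It had 18, 31 and 40 counts in the METTL7A1 libraries and 30, 24 and 29 counts in the mock libraries, and the groups overlapped. The means were 1.21 ± 0.355 and 1.26 ± 0.335 cpm (SD, n = 3 each). The log2 fold change was -0.03 with a 95% interval of -0.67 to 0.61 (edgeR adjusted p = 0.945), an interval that includes the value of Cxcl5 (0.54) but not those of Cxcl1 (0.67) and Cxcl3 (-1.56). The 3 promoters that share the kB word between -96 and -62 therefore belong to a gene that was higher, a gene that was lower and a gene that was not called.

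The differences among the ELR genes were also seen within libraries, where scaling between libraries plays no part. Per kb of exon length, the ratio of Cxcl1 to Cxcl3 was 40.1, 44.0 and 39.6 in the METTL7A1 libraries and 9.12, 8.32 and 8.94 in the mock libraries, with means of 41.2 ± 2.45 and 8.79 ± 0.419 (SD, n = 3 each). The ratio of Cxcl5 to Cxcl3 was 61.5 ± 5.17 against 14.4 ± 0.691, and that of Cxcl5 to Cxcl1 was 1.49 ± 0.107 against 1.64 ± 0.0194 (SD, n = 3 each). In these 3 ratios the groups did not overlap, and each gave p = 0.1 in a two-sided exact permutation test, the smallest that 3 against 3 libraries can give (adjusted p = 0.133 over the 4 ratios tested). The ratio of Cxcl1 to Cxcl2 was 310 ± 63.3 against 188 ± 54.4 and the groups overlapped (SD, n = 3 each, exact permutation p = 0.2, adjusted p = 0.2).

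The summed level of the 4 CXCR2 ligands was 579, 642 and 725 cpm in the METTL7A1 libraries and 439, 477 and 419 cpm in the mock libraries. The mean sum in METTL7A1 cells was 1.46 times that in mock cells. Cxcl5 and Cxcl1 made up nearly all of it, so that Cxcl3 counted for little in the sum.

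Of the CC chemokines Ccl20, Ccl2 and Ccl5 rose, all from low levels. Ccl20, the ligand of CCR6 on dendritic cells, B cells and Th17 cells, had 190, 391 and 288 counts in the METTL7A1 libraries and 34, 40 and 38 counts in the mock libraries, or 10.2, 13.2 and 11.7 against 1.85, 1.65 and 1.53 cpm. The lowest METTL7A1 library lay far above the highest mock library. The means were 11.7 ± 1.5 and 1.68 ± 0.166 cpm (SD, n = 3 each), a 7.03-fold rise or 2.81 ± 0.16 on the log2 scale (SE, edgeR adjusted p = 4.90e-07). Of the 13166 tested genes 41 rose further. The log2 fold change stayed between 2.71 and 2.91 in all 15 alternatives.

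Ccl2, the monocyte attractant that acts on CCR2, had 66, 114 and 115 counts in the METTL7A1 libraries and 9, 18 and 12 counts in the mock libraries. Its level was 4.02 ± 0.571 and 0.571 ± 0.147 cpm (SD, n = 3 each), with all METTL7A1 libraries above 3 cpm and all mock libraries under 1 cpm. The log2 fold change was 2.79 ± 0.25 (SE), and its 95% interval ran from 2.25 to 3.34 (edgeR adjusted p = 1.01e-05). Ccl2 entered the test through its METTL7A1 libraries alone, so that it had to differ to be tested, and it left the test when any METTL7A1 library was left out. In the 11 alternatives that included it the log2 fold change was between 2.68 and 3.03.

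Ccl7, a further CCR2 ligand encoded next to Ccl2, had 3, 1 and 2 counts in the METTL7A1 libraries and 0 in each mock library. A count of 0 allows up to 0.119 to 0.147 cpm in the mock libraries before scaling. Both groups were at or under 3 counts in every library, so no fold is given. When no abundance filter was applied, Ccl7 had an unadjusted p of 0.0257 and an adjusted p of 0.104 (edgeR). The summed level of Ccl2 and Ccl7 was thus set by Ccl2.

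Ccl5, a chemokine that attracts T cells and monocytes, had 68, 100 and 82 counts in the METTL7A1 libraries and 39, 68 and 47 counts in the mock libraries. In cpm the METTL7A1 libraries had 3.66, 3.38 and 3.32 and the mock libraries 2.13, 2.80 and 1.89, with no overlap and with mock replicate 2 nearest to the METTL7A1 group. The means were 3.45 ± 0.181 and 2.27 ± 0.473 cpm (SD, n = 3 each). On the log2 scale the difference was 0.60 ± 0.20 (SE, edgeR adjusted p = 0.0336). This call was the weakest of the set. It was lost with DESeq2 (adjusted p = 0.0537) and without METTL7A1 replicate 1, 2 or 3 or mock replicate 1 or 3, where the adjusted p lay between 0.06005 and 0.0862. Over all 15 alternatives it lay between 0.0172 and 0.0862.

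Cxcl10 and Cxcl16, the CXC genes without ELR, moved apart. Cxcl10, an interferon-inducible ligand of CXCR3 on T and natural killer cells and the gene with the interferon response word above, had 79, 146 and 134 counts in the METTL7A1 libraries and 31, 46 and 49 counts in the mock libraries. The levels were 4.25, 4.93 and 5.42 cpm against 1.69, 1.89 and 1.97 cpm, so that each METTL7A1 library had more than each mock library. The means were 4.87 ± 0.590 and 1.85 ± 0.143 cpm (SD, n = 3 each), a 2.62-fold rise or 1.39 ± 0.18 on the log2 scale (SE, edgeR adjusted p = 0.000136). The 95% interval of 0.99 to 1.79 spans the fold limit of the study thresholds.

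Cxcl16, the ligand of CXCR6, is made as a membrane protein and released by the sheddase ADAM10. It had 152, 158 and 163 cpm in the METTL7A1 libraries and 210, 216 and 194 cpm in the mock libraries, with all METTL7A1 libraries lower. The means were 158 ± 5.54 and 207 ± 11.4 cpm (SD, n = 3 each). The log2 fold change was -0.39 ± 0.07 (SE, edgeR adjusted p = 0.0014). Its exons share 915 bases with Zmynd15 on the opposite strand, which had at most 171 counts in a library against at least 2834 for Cxcl16, and how strand was treated in counting is not given in the sources used here. Adam10 itself was higher in METTL7A1 cells, at 133 ± 12.4 against 96.8 ± 4.63 cpm (SD, n = 3 each, log2 fold change 0.45, edgeR adjusted p = 0.00105). Adam17, also listed for the release of chemokines, was lower, with a log2 fold change of -0.22 (edgeR adjusted p = 0.0304). The median of its nearest abundant genes on the chromosome was -0.56.

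**Figure D2:**
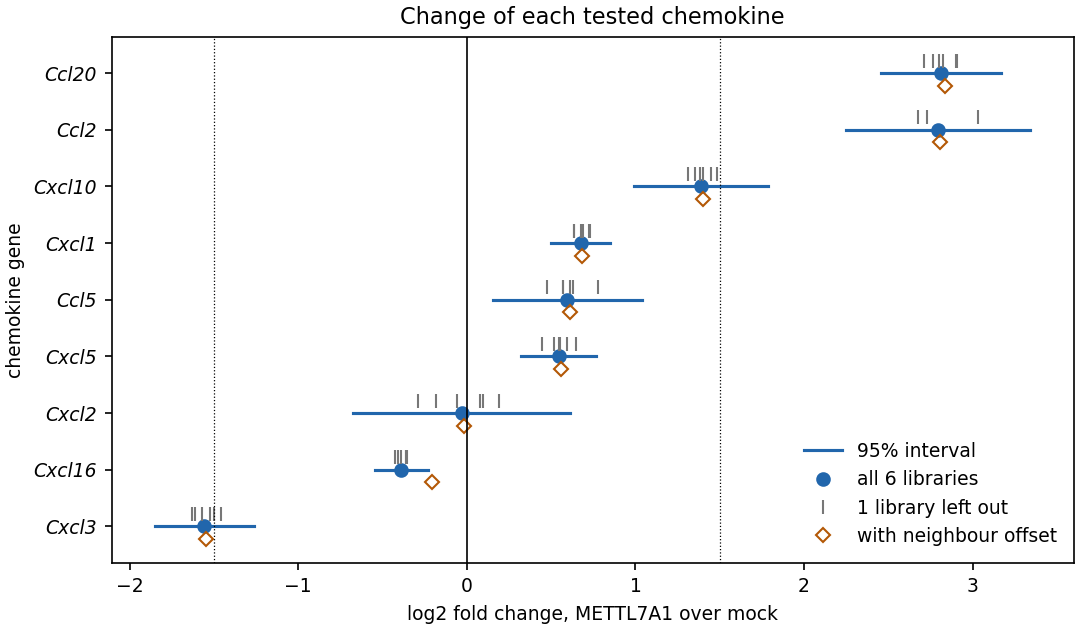
Log2 fold change, METTL7A1 over mock, of the 9 tested chemokine genes, with points for all 6 libraries, lines for the 95% interval, ticks for fits with 1 library left out, diamonds for the fit corrected for chromosome neighbours, and dotted lines at the fold limit of the study thresholds, 1.5 in either direction. Ccl20 (2.81) and Ccl2 (2.79) stand beyond the upper limit, Cxcl3 (-1.56) lies just past the lower one, and Cxcl16 goes from -0.39 to -0.21 with the correction.

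Levels of different genes were compared per kb of exon length. In mock cells the order was Cxcl5 (199 ± 12.9 cpm per kb), Cxcl1 (122 ± 8.52), Cxcl16 (76.6 ± 4.23), Cxcl3 (13.9 ± 1.59), Ccl5 (4.27 ± 0.889), Cxcl10 (1.22 ± 0.0944), Ccl20 (1.18 ± 0.117), Ccl2 (0.703 ± 0.181) and Cxcl2 (0.680 ± 0.1803) (SD, n = 3 each). Cxcl10 and Ccl20, and Ccl2 and Cxcl2, differed by less than their SD. In METTL7A1 cells the first 3 places were held by the same genes, at 291 ± 38.9, 194 ± 12.1 and 58.5 ± 2.05 cpm per kb (SD, n = 3 each). Below them the order was Ccl20 (8.23 ± 1.05), Ccl5 (6.49 ± 0.339), Ccl2 (4.94 ± 0.702), Cxcl3 (4.72 ± 0.439), Cxcl10 (3.20 ± 0.388) and Cxcl2 (0.652 ± 0.191), and Ccl2 and Cxcl3 differed by less than their SD. Over all libraries Cxcl5 ranked 157 and Cxcl1 257 among the 13166 tested genes on this scale.

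The make-up of the chemokine RNA shifted, with Cxcl5 and Cxcl1 the main parts in both groups. Of the length-scaled RNA of the 10 genes, Cxcl5 held 47.5% ± 0.372 in mock and 50.7% ± 1.93 in METTL7A1 cells, and Cxcl1 29.0% ± 0.133 and 34.0% ± 1.14 (SD, n = 3 each). Cxcl16 went from 18.3% ± 0.444 to 10.3% ± 0.620 and Cxcl3 from 3.30% ± 0.167 to 0.827% ± 0.0522 (SD, n = 3 each). Ccl20 went from 0.282% ± 0.0288 to 1.44% ± 0.173 and Ccl2 from 0.166% ± 0.0320 to 0.862% ± 0.0426 (SD, n = 3 each). These shares are a description without a test, since they follow from the levels above. The unscaled sum over all 10 genes was 753, 826 and 914 cpm in the METTL7A1 libraries and 655, 701 and 619 cpm in the mock libraries, and the groups did not overlap.

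**Figure D3:**
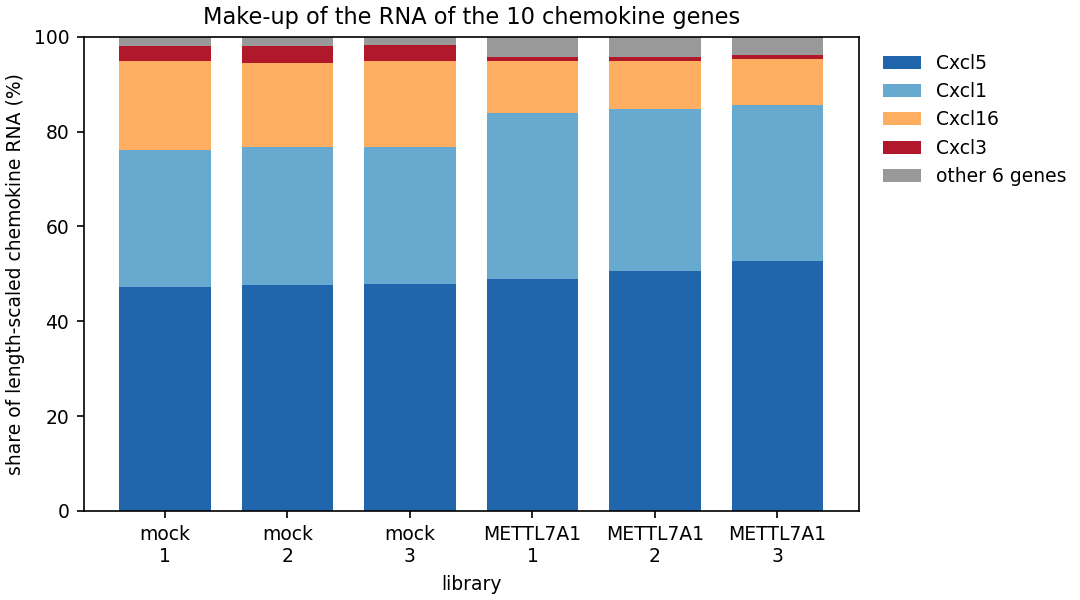
Share of each gene in the length-scaled RNA (percent) of the 10 chemokine genes, stacked for each of the 6 libraries. Cxcl5 and Cxcl1 together fill most of each bar, the Cxcl16 and Cxcl3 segments are smaller in the METTL7A1 libraries, and the segment of the other 6 genes is larger.

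To show the chemokine genes beside genes at the same chromosome position, the tested neighbours within 2 Mb of each locus, all chemokine genes left out, were examined. The 26 neighbours of the ELR cluster had a median log2 fold change of -0.11, with 7 called higher and 6 lower. Over all tested genes 21.1% were called higher and 20.9% lower. The neighbours of Cxcl10 (28 genes), Ccl2 and Ccl7 (31 genes) and Ccl5 (35 genes) had medians of -0.04, -0.01 and -0.04. Ccl20 had 9 tested neighbours with a median of 0.13. These medians lay nearer 0 than the called chemokine genes, as medians over several genes tend to do. The comparison therefore does not set the chemokines apart, and some single neighbours changed more in size. Areg (-1.02) and Btc (-1.26) did so beside Cxcl5 and Cxcl1, Gm1045 (1.52) and Ccng2 (1.56) beside Cxcl10, and Slfn2 (1.87) and Slfn8 (1.30) beside Ccl5. None did so beside Cxcl3, Ccl2 or Ccl20. Around Cxcl16 the 94 neighbours had a median of -0.15, with 34 lower and 12 higher. The neighbours nearest to Cxcl16 (-0.39) were Med11 (-0.77), Zmynd15 (-0.62), Arrb2 (-0.15), Pelp1 (-0.52), Psmb6 (-0.51) and Pld2 (-0.36). The median above and the offset below also take in genes further away, and whether Cxcl16 fell beyond its nearest genes was not tested.

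When the median of the 40 nearest abundant genes was taken as an offset, the log2 fold change of Cxcl16 went from -0.39 to -0.21 and stayed called (edgeR adjusted p = 0.0493, the highest of its 15 alternatives, which began at 1.78e-06). The offset was treated as known, so that this p value, close to 0.05, leaves out the error of the median. The other 7 calls also stood with this offset, with log2 fold changes of 2.83 for Ccl20, 2.81 for Ccl2, 1.40 for Cxcl10, 0.69 for Cxcl1, 0.61 for Ccl5, 0.56 for Cxcl5 and -1.55 for Cxcl3.

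**Figure D4:**
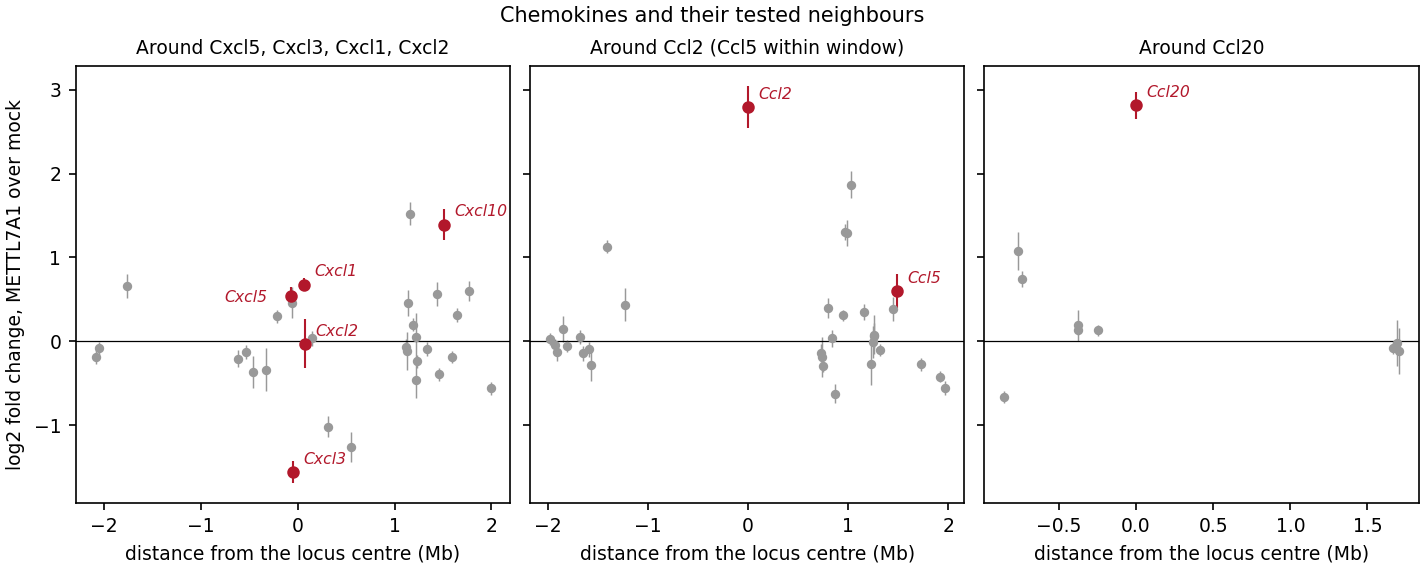
Log2 fold change, METTL7A1 over mock, of tested genes against distance (Mb) from the centre of 3 chemokine loci, with vertical bars for the SE, red points for the chemokine genes described and grey points for all other genes. Cxcl3 lies at -1.56 between Cxcl5 (0.54) and Cxcl1 (0.67), and Ccl2 (2.79) and Ccl20 (2.81) lie above all of their tested neighbours.

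The culture was checked for other cells that make chemokines. Of 14 leukocyte markers 2 passed the filter and both were called higher in METTL7A1 cells, as were 21.1% of all tested genes. Cd68, a lysosomal protein of macrophages and other cells, had a log2 fold change of 1.23 (edgeR adjusted p = 5.05e-05). Csf1r, the receptor of macrophage colony-stimulating factor, had 1.68 (edgeR adjusted p = 0.000506). Csf1r was under 1 cpm in every mock library and, like Ccl2, reached the test only through its METTL7A1 libraries, so that it had to differ to be tested and left the test when any of them was left out. The summed level of the 14 markers was 15.003 to 17.3 cpm in METTL7A1 and 6.11 to 6.91 cpm in mock cells. It was higher in METTL7A1 cells, like Ccl20, Ccl2 and Cxcl10. Most of the sum was Cd68, with means of 12.7 against 5.42 cpm, and Csf1r had 2.40 against 0.762 cpm. The part of such cells in the results was not tested. The defining markers of leukocytes were at or near 0, with 3 to 8 counts of Ptprc (CD45) in a library in both groups and no count of Cd3e or Tyrobp. S100a8, a neutrophil protein, had 14, 22 and 20 counts in the METTL7A1 libraries and 4, 3 and 1 in the mock libraries. Of 10 fibroblast and endothelial markers 1 was tested, Pdgfra, with a log2 fold change of 0.47 (edgeR adjusted p = 0.00177). The summed level of the 10 was 25.1 to 28.0 cpm in METTL7A1 against 18.7 to 20.5 cpm in mock cells. Most of that sum was Pdgfra, with means of 24.4 against 17.7 cpm. The part of such cells in the results was likewise not tested. Of 11 mammary epithelial and carcinoma markers 9 were tested, with 2 higher (Krt7, 0.50, and Elf3, 0.48) and 1 lower (Krt14, -1.94). Over all tested genes 21.1% were called higher and 20.9% lower. The summed level of the 11 markers was 1984 to 2341 cpm in METTL7A1 and 1826 to 2209 cpm in mock cells. Krt5 and Pgr had no counts.

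Few chemokine ligands outside the set were measurable. Of 28 such genes 3 were tested, 12 had no counts in any library, and the others were under the filter. Cx3cl1, the membrane-bound ligand of CX3CR1, was the only one called, where 42.0% of all tested genes were called and 20.9% were lower. Its level was 21.9 ± 2.37 against 27.3 ± 2.64 cpm (SD, n = 3 each, log2 fold change -0.31, edgeR adjusted p = 0.0316). The call was lost in 7 of 15 alternatives (adjusted p between 0.0109 and 0.227), among them the neighbour offset and the omission of METTL7A1 replicate 1 or 2 or mock replicate 1 or 2. Ppbp, a further ELR gene between Cxcl5 and Cxcl3 that was singled out after its values were seen, had a log2 fold change of 0.46 and was not called (edgeR adjusted p = 0.0647). It was called as higher without METTL7A1 replicate 1 or mock replicate 2, where Cx3cl1 was not, as well as without the 20 most abundant genes and with no abundance filter (adjusted p between 0.0125 and 0.0468, within a range of 0.0125 to 0.225 over all alternatives).

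Apart from Cxcr3, described below, the 4T1 cells carried little RNA of the receptors for their own chemokines. Cxcr2 had at most 3 counts in a library, Ccr2 at most 2 and Ccr6 at most 1. Of 23 receptor genes 2 were tested and both were called higher in METTL7A1 cells, where 42.0% of all tested genes were called and 21.1% were higher. Ackr3, an atypical receptor that binds and removes CXCL12 and CXCL11, was at 52.1 ± 5.99 against 36.1 ± 0.960 cpm (SD, n = 3 each, log2 fold change 0.53, edgeR adjusted p = 0.000689). Cxcr3, the receptor of CXCL10, had 45, 94 and 76 counts in the METTL7A1 libraries and 30, 27 and 35 counts in the mock libraries, without overlap, and the difference was 1.08 ± 0.22 on the log2 scale (SE, edgeR adjusted p = 0.00267).

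All 30 genes listed as receptors and transcription factors that switch chemokine genes on were tested, and 20 of them were called, 15 higher and 5 lower in METTL7A1 cells, where 42.0% of all tested genes were called, 21.1% higher and 20.9% lower. Their median log2 fold change was 0.24, against -0.03 over all genes tested. Nfkb2, the most abundant of them, which encodes the p100 precursor of the non-canonical NF-kB pathway, was lower at 131 ± 2.22 against 245 ± 19.97 cpm (SD, n = 3 each, log2 fold change -0.91, edgeR adjusted p = 7.62e-06). Of the other NF-kB subunits, Relb (-0.45) and Nfkb1 (-0.18) were also called lower (edgeR adjusted p = 0.00278 and 0.047), and Rela and Rel were not called. The medians of the nearest abundant genes on the chromosome were -0.21 for Relb and -0.16 for Nfkb1. The list joins receptors with transcription factors, so its counts do not describe NF-kB alone. Tnfrsf1b, which encodes TNF receptor 2, was higher, with a log2 fold change of 0.76 (edgeR adjusted p = 1.19e-05). So were Tlr3, a sensor of double-stranded RNA (0.88, adjusted p = 2.43e-05), and Stat2, a mediator of type I interferon signals (0.75, adjusted p = 0.00016). With the neighbour offset Stat2 was at 0.32 and still called (adjusted p = 0.0326, the highest of its 15 alternatives, which began at 1.84e-11).

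The 17 genes listed as NF-kB inhibitors or as acting on the stability of chemokine mRNAs were all tested. Not all of them restrain chemokine RNA, since the list also held Elavl1, Nfkbiz, Traf3ip2, Socs1 and Socs3. Of the 17 genes 11 were called, 4 higher and 7 lower, beside 42.0% of all tested genes. The median log2 fold change was -0.18. Traf3ip2 and Socs1 were among the lower calls and Socs3 among the higher, so that these counts do not describe restraint alone. Calls were 4 higher and 4 lower with the neighbour offset. Over all 13166 tested genes that offset gave 2383 higher and 1765 lower calls, against 2778 and 2758 without it. Nfkbia, which encodes the inhibitor IκBα and is itself induced by NF-kB, was at 43.2 ± 2.75 in METTL7A1 against 89.3 ± 5.58 cpm in mock cells (SD, n = 3 each, log2 fold change -1.05, edgeR adjusted p = 2.46e-06). With the neighbour offset the value was -0.57 and still called. Zfp36l1, which promotes decay of AU-rich mRNAs, had a log2 fold change of -0.60, and Tnfaip3, the ubiquitin-editing enzyme A20 and the most abundant of the list, of -0.41 (edgeR adjusted p = 0.000432 and 0.00146). Both calls were lost with the neighbour offset, where the values were -0.17 and -0.01 (adjusted p = 0.194 and 0.911, the highest of 15 alternatives that began at 2.24e-07 and 6.35e-08). Tnip1, a partner of A20, and Zc3h12a, the endonuclease Regnase-1, were higher, with log2 fold changes of 0.40 and 0.45 (edgeR adjusted p = 0.00128 and 0.00135).

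Of 12 genes listed for the release, cleavage or matrix capture of chemokines 10 were tested and 6 called, 4 higher and 2 lower, beside 42.0% of all tested genes. Mmp9, a protease that trims ELR chemokines and the most abundant of the list, rose from 415 ± 59.2 to 802 ± 57.2 cpm (SD, n = 3 each, log2 fold change 0.95, edgeR adjusted p = 6.37e-05). Sdc1, a heparan sulfate carrier that holds chemokines at the cell surface, had a log2 fold change of -0.72 (edgeR adjusted p = 0.00027) and of -0.26 with the neighbour offset, where the call was lost (adjusted p = 0.0796, the highest of 15 alternatives that began at 6.67e-12). Ext2, an enzyme of heparan sulfate synthesis, had overlapping groups and a log2 fold change of 0.34 (edgeR adjusted p = 0.0275). Its call was lost without METTL7A1 replicate 2 or 3 or mock replicate 3 (adjusted p between 0.0650 and 0.0960) and with the neighbour offset (0.201, within a range of 0.000313 to 0.201 over all alternatives).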

How the data were processed

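Stranded RNA-seq libraries were prepared after removal of ribosomal RNA and sequenced on a NovaSeq instrument. The authors trimmed reads with BBDuk, aligned them to mm10 with STAR 2.5.3a and counted them per gene with featureCounts on the Ensembl annotation, and deposited raw counts without normalization. The deposited table also gives the exon length of each gene, used here as other information to scale levels. No column of other samples was present. Sample titles gave each library its group and replicate number.

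The test was that of edgeR 4.0.16 in R 4.3.3 (glmQLFit, glmQLFTest, TMM, no covariate) for genes with at least 1 cpm in at least 3 libraries, the filter of the study, and p values were adjusted by Benjamini-Hochberg over all 13166 genes. The SE was the size of the log2 fold change divided by the square root of F. Fold change limits of the study, given without a base, were read as log2. The genes, lists and tests were chosen with earlier results of these data known, so list counts are descriptions. Named genes were the 10 chemokine genes, Mettl7a1, and for each list the 4 called genes with the smallest adjusted p and the most abundant. Marker genes, Ppbp, Relb, Nfkb1, Rela, Rel and receptors at or near 0 were named after their values were seen. The test was tried on simulated data first. Alternatives were RLE and upper quartile scaling, 2 other filters, removal of the 20 most abundant genes, a replicate block, DESeq2 1.42.0, limma 3.58.1 (voom), omission of each library and the neighbour offset, which subtracts the median change (log2) of 40 nearest genes on the chromosome with an average over 2 (log2 cpm). Promoters came from RefSeq and transcripts from GENCODE M21. The 95% intervals of log2 fold changes come from the fitted model, and limits for a count of 0 (3 counts) cover counting error only.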

Additional observations from a re-analysis of the deposited data

How the results depend on the processing

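Apart from Ccl5 (described above) and the absence of Ccl2 from the test in 4 alternatives, the calls of the chemokine genes held in all 15 alternatives with the same direction. The number called was 6 to 8 and the number past the study thresholds 2 to 3, and the median of all genes moved by less than 0.1 (log2). Mettl7a1 kept its log2 fold change of 8.17 with the replicate block. Genes past the study thresholds numbered 326, but 710 with no abundance filter (28601 tested) and 205 with at least 10 counts in every library. Calls of other ligands went from 1 to 3 with no filter and to 0 with the replicate block or the neighbour offset, and were 0 to 1 with a library left out, the 1 being Ppbp (higher) in place of Cx3cl1 (lower) without METTL7A1 replicate 1 or mock replicate 2. Calls of surface handling genes went from 6 to 3 with the replicate block and were 3 to 7 with a library left out, lowest without METTL7A1 replicate 2 or 3. Calls over all genes ranged from 3761 (without METTL7A1 replicate 2) to 5988 (no filter).

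The values gave no sign that replicate numbers pair the libraries. Deviations of same-numbered libraries correlated at -0.15, 0.20 and -0.37, and 1 of 3 METTL7A1 libraries correlated best with its own number. With 3 libraries in each group this cannot show that they are unpaired. With the replicate block 4808 genes were called and 331 passed the study thresholds, with 7 and 3 chemokine genes among them, Ccl5 being lost (adjusted p = 0.0572). Cx3cl1 and Ext2 also lost their calls with the block (adjusted p = 0.0549 and 0.0584). The cause of these changes was not tested. At these depths Ccl7, and most receptors and other ligands, could not be compared.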
